A study of Mus musculus with 6 samples.

Results

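*Ube3a*, *Tcf4*, *Fmr1*, *Tsc1*, *Tsc2* and *Cyfip1* are mouse genes whose human counterparts are mutated or deleted in neurodevelopmental disorders that share features with MEF2C haploinsufficiency, such as intellectual disability, seizures and autism. They were picked by gene symbol, and all 6 were found among the 21667 named genes of each table. Their mRNA was measured by RNA-Seq of polyA-selected RNA from the somatosensory cortex of 3 *Mef2c* cKO and 3 control mice. All 6 mice were males on a mixed SVeV-129 and C57BL/6J background, all carried floxed *Mef2c* alleles (*Mef2c* fl/fl), and in both genotypes replicate 1 was 14 weeks old and replicates 2 and 3 were 12 weeks old. The cKO mice also carried Emx1-Cre, which is active in the forebrain, in its excitatory neurons and part of its glia, so that *Mef2c* stayed intact in the other cells of the tissue, and the controls lacked Cre. Reads came to between 19326365 and 54128334 per mouse, and all levels below are recovered counts divided by this total and scaled to 1000000 reads (CPM), with no division by gene length unless stated. The counts were recovered from the deposited RPKM values as described under the processing of the data.

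UBE3A is a ubiquitin ligase that is lost in Angelman syndrome and is made in neurons mainly from the maternal allele. TCF4, the Pitt-Hopkins syndrome protein, is a basic helix-loop-helix (bHLH) transcription factor that binds E-box DNA as a dimer. FMRP, made from *Fmr1* and lost in fragile X syndrome, is an RNA-binding protein that holds back the translation of many synaptic mRNAs, and CYFIP1 is an FMRP partner that also sits in the WAVE complex, which drives branching of actin filaments. TSC1 and TSC2, the tuberous sclerosis proteins, form a complex that switches off RHEB and through it the growth kinase mTOR. UBE3A, FMRP, CYFIP1 and the TSC complex all act on protein turnover, translation or the cytoskeleton at the synapse.

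In the mm9 gene annotation (gencode, NCBIM37) *Fmr1* lies on the plus strand of chromosome X between positions 65931716 and 65971138. *Ube3a* and *Cyfip1* share chromosome 7, at 66484122 to 66562097 and at 63097115 to 63186070, both on the plus strand. *Tsc1* lies on the plus strand of chromosome 2 at 28496748 to 28546687 and *Tsc2* on the minus strand of chromosome 17 at 24732882 to 24769574. The values are sums over the exons of each gene, so that isoforms are not separated. The 3′ end of *Tsc2* overlaps that of *Pkd1* on the other strand by 578 bases. Whether the counting used strand is not given in the sources used here, and without it reads in this stretch, or reads from the antisense transcript of *Ube3a*, cannot be told apart from those of the gene.

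RefSeq promoter windows were at hand for 4 of the 6 genes, *Fmr1*, *Tsc1*, *Tsc2* and *Ube3a* (build GRCm38.p6). Those of *Fmr1* and *Tsc2* are printed, as these genes had the widest spread between cKO mice and the lowest adjusted p-value of the group. Each line gives the 250 bases before an annotated start, read 5′ to 3′ on the strand of the gene, chrX:68678291-68678540 on the plus strand and chr17:24632628-24632877 on the minus strand. Capitals mark the E-box core CANNTG, the letters that bHLH dimers such as those of TCF4 recognise, and CACGTG is one form of it.
Fmr1: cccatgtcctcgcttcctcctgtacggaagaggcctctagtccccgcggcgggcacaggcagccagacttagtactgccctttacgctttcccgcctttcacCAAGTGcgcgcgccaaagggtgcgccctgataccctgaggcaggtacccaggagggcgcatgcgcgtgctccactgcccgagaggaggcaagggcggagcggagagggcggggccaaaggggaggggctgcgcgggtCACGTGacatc
Tsc2: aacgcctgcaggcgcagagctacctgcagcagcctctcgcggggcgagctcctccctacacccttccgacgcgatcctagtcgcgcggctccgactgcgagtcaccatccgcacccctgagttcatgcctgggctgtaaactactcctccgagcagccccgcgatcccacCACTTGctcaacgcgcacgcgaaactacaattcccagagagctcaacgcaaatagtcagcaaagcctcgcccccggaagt
The *Fmr1* window held 2 matches to CANNTG, of which 1 was CACGTG, and the *Tsc2* window held 1. Of the 32851 mouse windows of this length, 66.2% held CANNTG and 6.02% held CACGTG. A MEF2 consensus site, searched on both strands, occurred in 2.92% of all windows and in none of the windows of these 4 genes. A match or its absence describes only the letters of these windows.

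None of the 6 genes passed both cut-offs used for a change between genotypes, which were an adjusted p-value under 0.05 and an absolute log2 fold change above 0.3. Over all 14621 genes tested with limma, 13.7% passed, 5.88% with a higher and 7.78% with a lower level in *Mef2c* cKO cortex. At an unadjusted p under 0.05 the count was 4 of 6, against 28.5% of all genes, and with limma's voom weights it was again 0 past both cut-offs. By the adjusted p-value alone, 1 of 6 passed, *Tsc2*, against 16.3% of all genes. The genotypes did not overlap in 2 of 6 genes, *Tcf4* and *Tsc2*, against 33.8% of all genes. With 3 mice against 3, the exact permutation test of a single gene cannot go below p = 0.10.

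**Figure D1:**
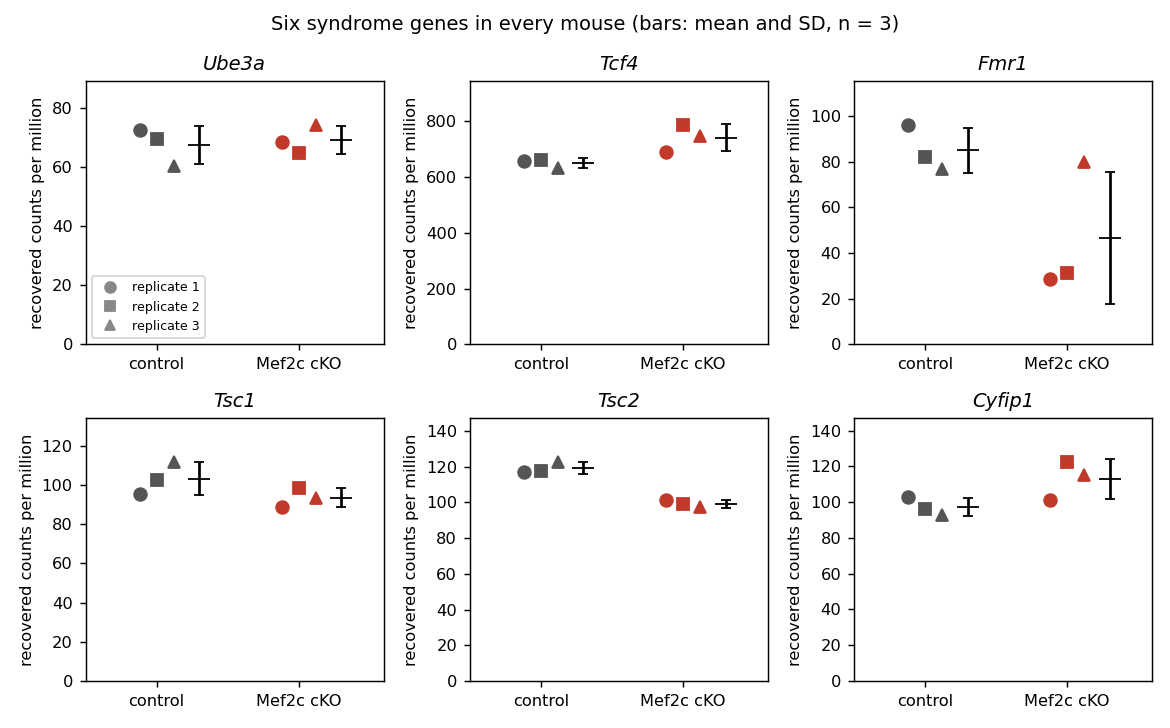
Recovered CPM (y axis, from 0) of the 6 syndrome genes in each mouse, with controls in grey and Mef2c cKO mice in red, a marker shape for each replicate number and black bars for the mean and SD (n = 3). The 3 cKO mice lie above the controls for Tcf4 and below them for Tsc2, while for Fmr1 cKO replicates 1 and 2 lie far below cKO replicate 3, which sits among the controls.

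*Tsc2* had the lowest p-value of the group. It measured 117.1, 117.4 and 122.9 CPM in control replicates 1, 2 and 3 and 101.6, 98.9 and 97.2 CPM in the cKO replicates. Every cKO mouse was below every control, and both genotypes were tight, with 119 ± 3.23 CPM in controls and 99.2 ± 2.20 CPM in cKO (SD, n = 3 each). The log2 fold change was −0.26 (SE 0.05, 95% interval −0.38 to −0.14, limma adjusted p = 0.0087), a ratio of 0.833, which is short of the fold cut-off. *Pkd1*, whose end overlaps that of *Tsc2*, differed by 0.08 on the log2 scale (limma adjusted p = 0.557). *Tsc1* measured 95.4, 102.3 and 111.9 CPM in controls and 88.5, 98.3 and 93.6 CPM in cKO mice. These ranges overlapped, and the log2 fold change was −0.14 (SE 0.07, 95% interval −0.31 to 0.02, limma adjusted p = 0.243).

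The third subunit of the TSC complex and its targets were read from the same fit. *Tbc1d7*, the third subunit, stood at −0.07 (log2 fold change, limma adjusted p = 0.651). *Rheb*, the GTPase that the complex turns off, had 0.13 (adjusted p = 0.269) and *Mtor* itself 0.12 (adjusted p = 0.189), and in both the 3 cKO mice were above the 3 controls without passing the test. Of 31 mTOR pathway genes tested, 3 rose and 2 fell past both cut-offs, 16.1% beside 13.7% of all genes. The median log2 fold change of the 31 was 0.03 beside 0.01 over all genes. The 3 that rose dampen mTOR signalling: *Deptor*, a subunit that inhibits the kinase (1.05, SE 0.11, adjusted p = 2.1e-04), *Ddit4*, a stress-induced inhibitor that acts through the TSC complex (0.85, SE 0.12, adjusted p = 9.9e-04), and *Sesn2*, a leucine sensor (0.46, SE 0.10, adjusted p = 0.014). *Deptor* went from 34.9 to 43.4 CPM in controls to 71.7 to 91.0 CPM in cKO mice. The 2 that fell were *Rragd*, a Rag GTPase that recruits mTOR to lysosomes (−1.08, SE 0.06, adjusted p = 4.0e-06), and *Eif4ebp1*, a repressor of cap-dependent translation that mTOR phosphorylates (−1.23, SE 0.30, adjusted p = 0.021). *Rragd* measured 140 to 149 CPM in controls and 66.8 to 70.9 CPM in cKO mice, whereas *Eif4ebp1* stayed under 2 CPM in all mice.

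*Fmr1* had the largest fold change of the group and also the widest spread. It measured 96.2, 82.1 and 77.1 CPM in control replicates 1, 2 and 3 and 28.8, 31.1 and 79.8 CPM in cKO replicates 1, 2 and 3. In cKO replicates 1 and 2 the level was below every control, and in cKO replicate 3 it fell within the control range. The log2 fold change was −1.03 (SE 0.32, 95% interval −1.76 to −0.30, limma adjusted p = 0.061), and the exact two-sided permutation test of CPM gave p = 0.20. The call rested on cKO replicate 3, since without it the log2 fold change was −1.50 (adjusted p = 5.3e-05), past both cut-offs. The 943, 601 and 4320 reads on *Fmr1* in cKO replicates 1, 2 and 3 gave exact 95% Poisson intervals of 27.0 to 30.7, 28.7 to 33.7 and 77.4 to 82.2 CPM, which cover counting error only and not the spread between animals. With the 12-week-old mice alone, an alternative chosen after seeing the data, the log2 fold change was −0.67 (adjusted p = 0.335).

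Among the 8243 tested genes with a mean of at least 20 CPM and a count in every mouse, the highest cKO mouse was typically 1.11-fold above the lowest (median). For *Fmr1* this ratio was 2.77-fold in cKO mice and 1.25-fold in controls. Only 20 of the 8243 genes had a wider range among cKO mice. In 16 of these 20 cKO replicate 3 was the lowest of the 3 mice, and in 0 of 20 was it the highest, unlike *Fmr1*. Among those 8243 genes, 13 lay more than 4-fold from the median of the 6 mice in cKO replicate 3, all of them lower, against 0 to 3 genes in each other mouse. The part of this library's difference in the *Fmr1* value was not tested.

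The spread was also not shared by the genes around *Fmr1* on the X chromosome. Within 5 Mb of either side of it, 34 other genes were tested, 18 of them with a mean of at least 20 CPM. The widest range of these 18 among cKO mice was 1.61-fold, for *Hmgb3*. *Slitrk2*, the nearest of them upstream, measured 26.2, 30.1 and 31.5 CPM in cKO replicates 1, 2 and 3, and *Ids*, the nearest downstream, measured 578.1, 532.3 and 561.8 CPM. Of the 18, only *Pnck* passed both cut-offs (−0.55, limma adjusted p = 0.039). *Hmgb3*, *Slitrk2*, *Ids* and *Pnck* were picked after their values were seen.

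**Figure D2:**
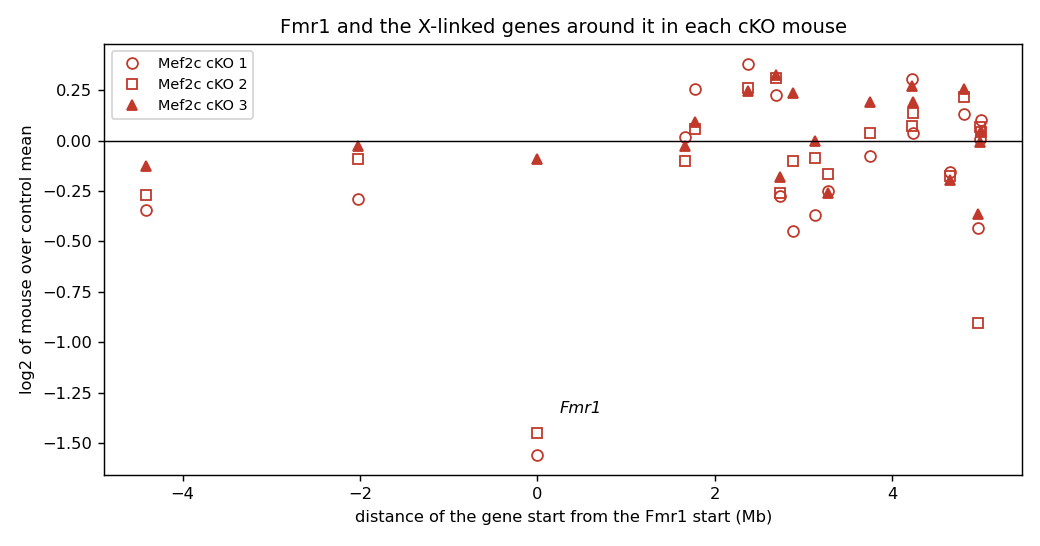
Level in each Mef2c cKO mouse relative to the control mean (y axis, log2) for Fmr1 and the 18 genes within 5 Mb of it with a mean of at least 20 CPM, plotted by the distance of their starts from the start of Fmr1 (x axis, Mb). Fmr1 in cKO replicates 1 and 2 (open symbols) lies below all other points, while Fmr1 in cKO replicate 3 (filled triangle) lies near 0.

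The *Fmr1* paralogs *Fxr1* and *Fxr2*, which encode related RNA-binding proteins, had log2 fold changes of 0.11 (SE 0.07, limma adjusted p = 0.333) and 0.08 (SE 0.06, adjusted p = 0.376). *Fxr1* measured 77.3, 70.9 and 75.1 CPM in cKO replicates 1, 2 and 3, and *Fxr2* measured 116.1, 112.4 and 111.9 CPM, so neither had the split seen for *Fmr1*. Of 14 FMRP partners tested, 0 passed both cut-offs with limma or with voom, 4 had an unadjusted p under 0.05 (28.5% of all genes did), and the median log2 fold change was 0.07. By the adjusted p-value alone *Stau2*, which encodes an RNA transport protein of dendrites, passed (−0.26, SE 0.05, adjusted p = 0.0071). Of 35 mRNAs tested that FMRP is known to bind, 4 fell and 0 rose past both cut-offs (median log2 fold change −0.09). These are 11.4%, beside 13.7% of all genes past the cut-offs in either direction and 7.78% lower. The 4 were the postsynaptic scaffold *Dlgap2* (−0.60, SE 0.11, adjusted p = 0.0042), the NMDA receptor subunit *Grin2a* (−0.47, SE 0.13, adjusted p = 0.041), the calcium channel *Cacna1a* (−0.45, SE 0.07, adjusted p = 0.0017) and the presynaptic scaffold *Bsn* (−0.39, SE 0.06, adjusted p = 0.0019). *Dlgap2* measured 135.1, 151.7 and 180.2 CPM in controls and 112.6, 99.6 and 94.5 CPM in cKO mice. In *Dlgap2*, *Grin2a*, *Cacna1a* and *Bsn* cKO replicate 3 was the lowest of the cKO mice, whereas for *Fmr1* it was the highest. These 4 were picked by their change in the same data, and a link between target mRNAs and the *Fmr1* level was not tested. An unadjusted limma p under 0.05 was found for 18 of the 35 mRNAs, against 28.5% of all genes. By the adjusted p-value alone 8 of the 35 passed, against 16.3%. Their genotypes did not overlap in 21 of 35, against 33.8% of all genes. In cKO 24 of the 35 were lower and 11 higher, beside 7058 lower and 7563 higher among all 14621 genes. Translation, through which FMRP acts, was not measured.

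*Cyfip1* measured 103.0, 96.2 and 92.8 CPM in controls and 101.0, 122.6 and 114.9 CPM in cKO mice. Only cKO replicate 1 fell within the control range. The mean was 15.9% higher in cKO, with a log2 fold change of 0.21 (SE 0.08, 95% interval 0.03 to 0.39, limma adjusted p = 0.113). The lowest cKO value came from the 14-week-old mouse, replicate 1. Without this mouse the log2 fold change was 0.29 (adjusted p = 0.031), short of the fold cut-off. Leaving out any other single mouse gave 0.15 to 0.25 (adjusted p = 0.11 to 0.30). With the 12-week-old mice alone, an alternative chosen after seeing the data, it was 0.33 (adjusted p = 0.031), past both cut-offs. That fit drops replicate 1 of both genotypes, and so the lowest cKO value. A part of age in the *Cyfip1* values was not tested. The paralog *Cyfip2* measured 1320, 1262 and 1192 CPM in controls and 1012, 1091 and 1134 CPM in cKO mice. For *Cyfip2* all cKO mice were below all controls, opposite in sign to *Cyfip1* (−0.22, SE 0.07, adjusted p = 0.061). Of 13 genes of the WAVE complex and Rac signalling, 0 passed both cut-offs with limma or with voom and 4 had an unadjusted p under 0.05, near the 28.5% of all genes (median log2 fold change 0.04). *Wasf1*, the WAVE subunit most used in neurons, passed by the adjusted p-value alone (0.26, SE 0.05, adjusted p = 0.0092).

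*Ube3a* had the smallest difference. It measured 72.6, 69.7 and 60.3 CPM in controls and 68.7, 64.9 and 74.4 CPM in cKO mice, and the genotypes overlapped over most of their range. The log2 fold change was 0.04 (SE 0.08, 95% interval −0.15 to 0.23, limma adjusted p = 0.807), and a change within that interval could not be told from none. *Ipw*, a noncoding RNA from the long transcript that runs antisense through *Ube3a* on the paternal allele, was looked at after its spread was noticed. It measured 37.7, 23.6 and 45.0 CPM in controls and 24.6, 41.1 and 12.2 CPM in cKO mice, an overlap of the genotypes (−0.56, SE 0.39, adjusted p = 0.385). Of 22 HECT ubiquitin ligases, the enzyme family of UBE3A, 0 rose and 3 fell past both cut-offs. These are 13.6%, beside 13.7% of all genes past the cut-offs in either direction and 7.78% lower. The 3 were *Hecw1* (−0.43, SE 0.07, adjusted p = 0.0026), *Herc3* (−0.40, SE 0.06, adjusted p = 0.0014) and *Hecw2* (−0.40, SE 0.12, adjusted p = 0.044). The median log2 fold change of this family was −0.04.

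*Ube3a* and *Cyfip1* belong to the mouse region that matches the human Angelman and Prader-Willi interval. Of 11 other genes of this region tested, 1 passed both cut-offs, 9.09% beside 13.7% of all genes. *Gabra5*, a GABA-A receptor subunit, rose from 40.6, 41.7 and 35.3 CPM in controls to 90.1, 88.1 and 99.4 CPM in cKO mice (1.24, SE 0.08, limma adjusted p = 1.5e-05). *Gabrg3*, another GABA-A receptor subunit gene of the region, had a log2 fold change of −0.20 (adjusted p = 0.375) and was named after its value was seen. The median over the region was 0.03.

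*Tcf4* was the most abundant of the 6 genes, at 659.5, 663.2 and 631.8 CPM in controls and 690.8, 787.5 and 747.5 CPM in cKO mice. Every cKO mouse was above every control. The mean was 13.9% higher in cKO, with a log2 fold change of 0.19 (SE 0.06, 95% interval 0.04 to 0.33), which did not pass the adjusted test (limma adjusted p = 0.087). The other E-proteins, which like TCF4 pair with tissue-specific bHLH factors, were *Tcf3* (0.12, adjusted p = 0.383) and *Tcf12* (0.05, adjusted p = 0.712).

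Of 14 bHLH and Id partners of Tcf4 tested, 8 rose and 2 fell past both cut-offs, 71.4% beside 13.7% of all genes. Their median log2 fold change was 0.39. *Neurod6*, a factor of excitatory neurons, measured 51.5, 35.1 and 38.3 CPM in controls and 113.8, 99.0 and 100.9 CPM in cKO mice (1.34, SE 0.13, limma adjusted p = 1.4e-04). *Id3* (1.04, SE 0.14, adjusted p = 7.8e-04) and *Id1* (0.77, SE 0.12, adjusted p = 0.0023) encode inhibitors that bind E-proteins but not DNA. The most abundant Id gene of the list, *Id2*, had the opposite sign (−0.20, SE 0.08, adjusted p = 0.122). Its mean was 177 CPM in controls and 155 CPM in cKO mice, and the genotypes overlapped. *Atoh7* fell (−0.84, SE 0.20, adjusted p = 0.021) but stayed under 2 CPM in all mice. *Neurod2*, *Id4*, *Olig1* and *Olig2* also rose, by 0.39 to 0.68, and *Bhlhe22* fell by 0.63 on the log2 scale. *Olig1* and *Olig2* mark the oligodendrocyte lineage. The summed level of 12 oligodendrocyte markers was 3384 to 5550 CPM in controls and 5461 to 7008 CPM in cKO mice, and all 12 had a higher mean of log2 CPM in cKO. Past both cut-offs were 2 of them, 16.7% beside 13.7% of all genes (10 without control replicate 3, 5 without cKO replicate 1 and 1 without each of the other mice). The part of the higher oligodendrocyte markers in the *Olig1* and *Olig2* values was not tested. In tissue, more cells of a type and more RNA per cell cannot be told apart.

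**Figure D3:**
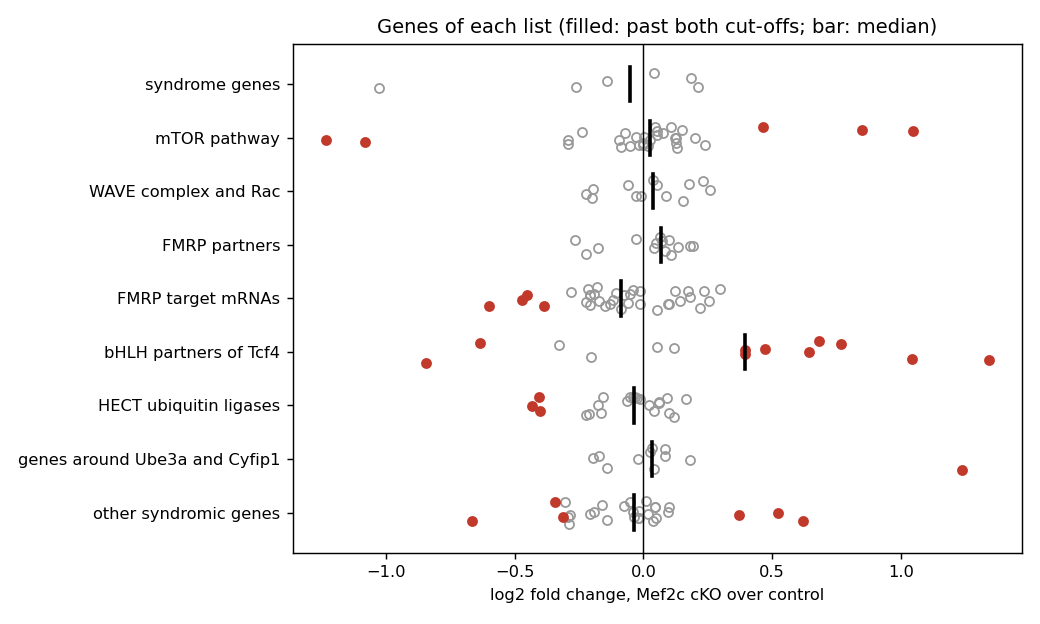
Log2 fold change between Mef2c cKO and control mice (x axis) of each tested gene in the group of 6 and in the lists of related genes (rows), with filled red circles for genes past both cut-offs, open circles for the others and a black bar for the median of each list. The list of bHLH partners of Tcf4 holds 10 filled circles of 14, and the FMRP partners and the WAVE complex hold 0.

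Of 29 genes tested of other syndromes with autism or intellectual disability, 3 rose and 3 fell past both cut-offs (median log2 fold change −0.04). These are 20.7%, beside 13.7% of all genes. Among them the transcription factor *Zeb2* rose, from 143.7 to 176.4 CPM in controls to 195.6 to 221.5 CPM in cKO mice (0.37, SE 0.08, limma adjusted p = 0.016). The cell adhesion gene *Pcdh19* fell, and its 3 cKO mice were all below the 3 controls (−0.66, SE 0.12, adjusted p = 0.0044).

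Per kilobase of annotated exon, *Tcf4* had the highest level in controls, 53.2 ± 1.40 CPM per kb (SD, n = 3 here and for the genes that follow). *Tsc2* followed with 18.8 ± 0.51, *Ube3a* with 13.3 ± 1.26, *Cyfip1* with 10.9 ± 0.58, *Fmr1* with 9.50 ± 1.11 and *Tsc1* with 8.72 ± 0.70 CPM per kb. In this order *Cyfip1* and *Fmr1* overlapped in their values, as did *Fmr1* and *Tsc1*, and the other neighbours did not. In cKO mice *Fmr1* came last, at 5.19 ± 3.21 CPM per kb, below *Tsc1* at 7.90 ± 0.41, and these 2 again overlapped. The order of the other 4 was the same as in controls, although *Ube3a* and *Cyfip1* overlapped in cKO mice.

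**Figure D4:**
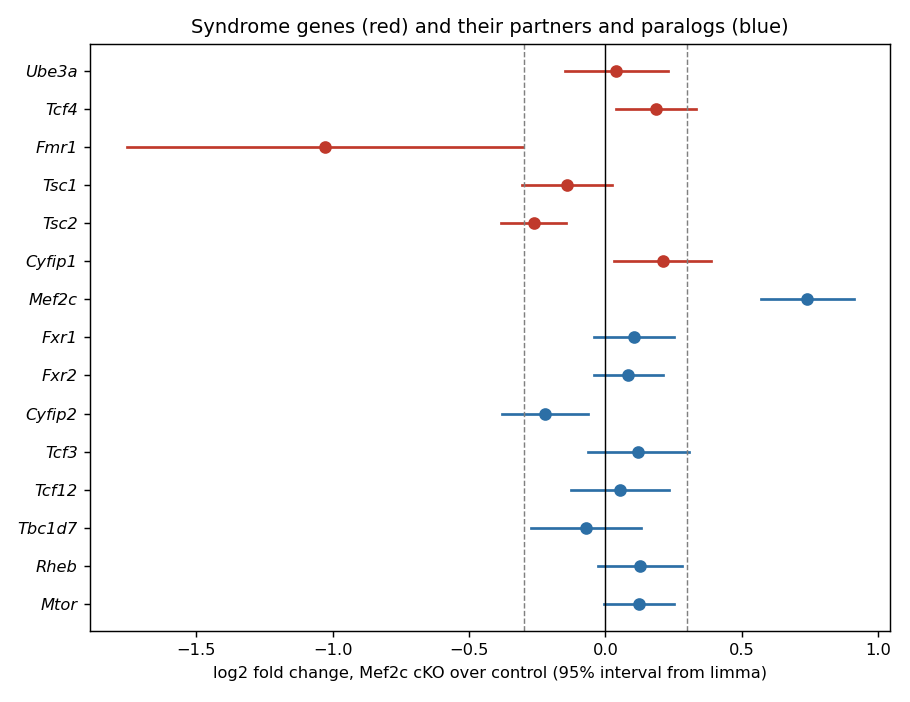
Log2 fold change of Mef2c cKO over control (points) with its 95% interval from limma (lines, not adjusted for the number of genes) for the 6 syndrome genes in red and for Mef2c and the partners and paralogs named in the text in blue, with dashed lines at the fold cut-off of 0.3 in both directions. The interval of Ube3a spans 0, that of Fmr1 is the widest, and Cyfip1 and Cyfip2 lie on opposite sides of 0.

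Across the 6 mice, the tested genes whose log2 CPM followed each gene most closely were ranked by Pearson's r. It is given only as a description, over mice that differ in genotype and depth. Each set of 3 was picked from 14620 genes over 6 mice, which favours high values of r. For *Fmr1* they were *Gprasp1*, *Snx7* and *Tubgcp5*, with r of 0.997 for the lowest of the 3. Their changes were smaller than that of *Fmr1*, with *Tubgcp5* at 40.4 to 42.3 CPM in controls and at 35.7, 35.7 and 40.9 CPM in cKO replicates 1, 2 and 3. *Tsc2* was closest to *Olfm2*, *Ttc17* and *Pdzrn3* (lowest r 0.997), *Tcf4* to *Gins3*, *Acp7* and *Kcnab2* (lowest r 0.982) and *Cyfip1* to *Cep76*, *Art3* and *Arpin* (lowest r 0.981). *Ube3a* was closest to *Atp6v1a*, *Znhit3* and *Mageh1* (lowest r 0.984) and *Tsc1* to *Eva1a*, *Xaf1* and *Fggy* (lowest r 0.988). Among the 6 genes themselves *Tcf4* and *Cyfip1* followed each other most closely (r = 0.965), and *Tcf4* and *Tsc2* ran most opposite (r = −0.903).

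*Mef2c* itself measured 800.3, 771.8 and 800.2 CPM in controls and 1231, 1276 and 1468 CPM in cKO mice (0.74, SE 0.07, limma adjusted p = 1.8e-04). A sum over the whole gene does not check the deletion, which removes only the floxed part. Over genes with a mean of at least 20 CPM, pairs of mice of 1 genotype had a Pearson's r of log2 CPM of 0.986 to 0.992, and pairs of different genotypes one of 0.959 to 0.968. Markers of the cell types of cortex were present in every mouse. Past both cut-offs were 8 of 12 pyramidal neuron markers (4 higher and 4 lower), 3 of 12 interneuron markers (1 without control replicate 1, control replicate 2 or cKO replicate 2) and 3 of 12 astrocyte markers. These are 66.7%, 25% and 25%, beside 13.7% of all genes. For the 12 microglia and the 12 endothelial markers the count was 0, with limma and with voom, and 3 and 1 of them had an unadjusted p under 0.05, against 28.5% of all genes. *Emx1*, a pyramidal marker and the gene that carries Cre in the cKO mice, was among those that fell (−1.79, SE 0.11, adjusted p = 1.2e-05).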

How the data were processed

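RNA of 6 mice was sequenced on directional polyA libraries. The authors aligned the reads to mm9 with TopHat and Bowtie, counted them per gene with HTSeq and deposited 1 table of RPKM values per mouse (versions not given in the sources used here). Samples were grouped by their labels, which call the replicates independent. In the order of gene identifiers sorted as text, the deposited RPKM values followed a list of 65 to 296 gene lengths, repeated down the rows and different between tables, so that the same gene had been divided by different lengths in different mice. From these lists and the sample totals, 99.83% to 99.88% of the non-zero values could be turned into a whole count, and the counts summed to 99.98% of the total in every table. This recovery was devised after seeing the values. Values that gave no whole count were missing, and 92 rows without a gene name, at most 0.078% of the reads, were left out. For 34 of the 36 member values only 1 length of the list gave a whole count (to 1e-06 beyond rounding), and row order settled the others.

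CPM were compared as log2(CPM + 0.1) with limma 3.58.1 (R 4.3.3; lmFit and eBayes with a variance trend, all 6 mice, no covariates) for the 14621 genes above 0.5 CPM in every mouse of at least 1 genotype and with at least 2 values per genotype. P-values were adjusted by Benjamini-Hochberg over all of them. The pseudocount understates the change of low genes. Single genes were also tested by an exact two-sided permutation test. Python 3.11.15, numpy 2.4.6, pandas 2.3.3, scipy 1.17.1 and matplotlib 3.10.9 were used. In simulated data 6 of 6 totals were found and 100% of the recovered counts were right, and limma over 14401 genes called 33.8%, 98.3% and 100% of genes changed by 0.5, 1 and 1.5 (log2). There 200 genes were changed, and the spread between mice followed a preset formula, not a fit to these data. The shares called therefore need not hold for the real mice. The simulated tables were built with lists of lengths repeated down the same row order. They therefore cannot test whether the deposited tables have this form. The authors' gene annotation was not used here, and positions and exon lengths come from gencode for the same build.

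The 6 genes and all lists were chosen with earlier results of these data known. Named besides them by rule were *Mef2c*, paralogs, the TSC partners, up to 4 genes of each list with the largest change past the cut-offs and no overlap between genotypes, and the 3 genes most like each of the 6. Outside this rule, and with their values known, *Sesn2*, *Neurod2*, *Id2*, *Id4*, *Olig1*, *Olig2*, *Bhlhe22*, *Stau2* and *Wasf1* were named too. So were *Pkd1*, *Ipw*, *Gabrg3* and the genes around *Fmr1*. Some genes of the lists are counted but not reported here by name. The alternatives tried were other pseudocounts, filters, scaling, weights, a replicate block, other cut-offs and leaving out each mouse.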

Additional observations from a re-analysis of the deposited data

How the results depend on the processing

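The recovered counts decide these results. On the deposited RPKM as they stand, 14 genes passed both cut-offs (9 higher, 5 lower) in place of 1996, and 4 of the 6 genes changed sign with no support from the test, to −1.42 for *Ube3a*, −1.80 for *Tcf4*, 0.072 for *Tsc1* and −1.56 for *Cyfip1*. A fold cut-off of 1 (log2) left 472 genes. Leaving out each mouse in turn gave 1656 to 1868 genes. The log2 fold change then ran from −0.040 to 0.093 for *Ube3a* (−0.040 without control replicate 3 and −0.012 without cKO replicate 3), from −1.50 to −0.77 for *Fmr1*, from −0.20 to −0.081 for *Tsc1* (−0.081 without control replicate 3), from 0.14 to 0.24 for *Tcf4* and from 0.15 to 0.29 for *Cyfip1*. *Fmr1* passed without cKO replicate 3 (−1.50), and *Cyfip1* passed with the 12-week-old mice only (0.33). The fit of the 12-week-old mice, chosen after seeing the data, put *Fmr1* at −0.67 (adjusted p = 0.335) and left 572 genes higher in cKO. *Tsc2* kept an adjusted p under 0.05 in all 16 alternatives on recovered counts (0.0082 to 0.042), never with a log2 fold change past 0.3. The deviations of same-numbered mice from their genotype means correlated at −0.19 to −0.17, and those of differently numbered mice at 0.080 to 0.099. With 3 mice per genotype, such correlations cannot decide whether same-numbered mice shared a litter or batch. With a replicate block 1694 genes passed, none of the 6 among them. The cause of the other shifts was not tested.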
